A study of Mus musculus with 8 samples.

Results

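The TRAV14 family is a set of closely related V gene segments of the mouse T cell receptor α-chain locus, and 8 of its names were examined here, chosen by their V name in the α-chain files as every TRAV14 copy whose name carries no DV ending. These were TRAV14-1, TRAV14-2, TRAV14-3, TRAV14D-1, TRAV14D-2, TRAV14N-1, TRAV14N-2 and TRAV14N-3, of 116 α-chain V names in all. They held 10046 of 80000 α-chain reads (12.6%) and 6311 of 53249 α-chain clonotypes summed over 8 mice, and only the TRAV7 (18.8%) and TRAV12 (13.7%) families had more reads. A clonotype is 1 CDR3 nucleotide sequence with its reads in 1 mouse, and the CDR3 is the stretch of the receptor where the V and J segments meet.

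All mice were female C57BL/6 animals aged 6 to 8 weeks that received 200000 B16F10 melanoma cells, cyclophosphamide (CTX, which depletes lymphocytes) at 300 mg/kg on day 3, 2000000 Thy1.1 Pmel-1 CD8+ T cells with a transgenic receptor for gp100 on day 5, and 10000 IU interleukin-2 on each of 3 days. The CTX group (CTXpre, n = 3 mice) received nothing more, and the CTX_CD4 group (CTXpre/CD4post, n = 5 mice) also received 200 μg of the CD4-depleting antibody GK1.5 on days 10, 17 and 24. On day 25 Thy1.1-negative CD8+ cells, the endogenous T (en-T) cells, were sorted from inguinal lymph nodes and spleen, and their receptor RNA was amplified and sequenced, with 1 library per mouse. There was no mouse without cyclophosphamide, so each comparison below sets antibody-treated against untreated mice that had all been lymphodepleted.

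An α-chain gene is built in the thymus when 1 V segment is cut and joined to 1 of many J segments, with bases trimmed from both ends and others added by an enzyme without a template. Joins that keep the germline bases and add none can arise repeatedly in different cells, so the same sequence is often met in several animals. In mice of this strain a large stretch of the V locus is repeated, which gives the copies marked D and N beside the unmarked ones.

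Each copy lies on the plus strand of chromosome 14 of GRCm38 (GENCODE annotation), in the order TRAV14D-1, TRAV14D-2, TRAV14D-3-DV8, TRAV14N-1, TRAV14N-2, TRAV14N-3, TRAV14-1, TRAV14-2 and TRAV14-3, with the J segments after them. TRAV14N-1 spans chr14:53166626-53167178, TRAV14N-2 chr14:53259578-53260179 and TRAJ22 chr14:54197248-54197307, each annotated as a receptor gene segment. All 9 copies, the DV copy included, give the CDR3 the same first 13 bases. Those bases and the CDR3s that carry most of the results are printed here 5′ to 3′, with bases between the germline V and J matches in capitals.

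TRAV14 germline start of the CDR3: tgtgcagcaagtg
TRAJ22 germline join: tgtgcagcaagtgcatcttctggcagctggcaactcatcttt
short TRAJ22 germline join: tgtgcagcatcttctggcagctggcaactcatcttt
TRAJ13 germline join: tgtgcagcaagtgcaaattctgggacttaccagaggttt
TRAJ30 germline join: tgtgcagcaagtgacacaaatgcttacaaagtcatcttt
TRAJ30 join with 2 added bases: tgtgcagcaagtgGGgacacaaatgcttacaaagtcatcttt
TRAJ22 join with 5 added bases: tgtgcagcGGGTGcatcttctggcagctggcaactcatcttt
TRAJ17 germline join: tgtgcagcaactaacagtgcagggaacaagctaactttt
TRAJ48 join with 1 added base: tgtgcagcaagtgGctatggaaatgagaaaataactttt
TRAJ50 join with 2 added bases: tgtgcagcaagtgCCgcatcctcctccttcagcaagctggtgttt
TRAJ11 join with 7 added bases: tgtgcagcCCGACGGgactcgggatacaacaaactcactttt
TRAJ11 join with 1 added base: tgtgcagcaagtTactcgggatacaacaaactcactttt

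The first 5 lines show the shared germline start and those of the printed joins that were met in all 8 mice under any V name. The others are clonotypes that were large in 1 or 2 mice. In the TRAJ22 germline join 13 bases match the V segment and the remaining 29 match TRAJ22, with none between them. In the short form the V and J matches overlap by 2 bases.

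The copies could be told apart only in part. The V exons of TRAV14D-1 and TRAV14N-1 were identical over 312 bases, as were those of TRAV14D-2 and TRAV14N-2, with their leader exons and introns, while every other pair of copies differed at 6 to 23 bases of the V exon. One CDR3 sequence often carried different copy names in different mice: of 766 family CDR3 sequences found in at least 2 mice, 659 (86.0%) had more than 1 family name. When the same sequence was compared between a pair of mice, its name was the same in 30.6% of 2363 such pairs, or 45.2% after pooling the copies with identical exons. Levels of single copies below are therefore levels of a name, and family totals are less exposed to the naming. Of 1045 family sequences met in at least 2 mice under any name, 422 (40.4%) also bore a name outside the family in some mouse, most often TRAV7D-2 (178 sequences), TRAV10D (112) and TRAV14D-3-DV8 (75).

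Each α-chain file held 10000 reads after down-sampling by the authors, in 5043 to 7695 clonotypes. CTXpre/CD4post replicates 1 and 2 were examined as a pair for shared sequences. They had 74 family CDR3s in common, within the 59 to 110 of the other 27 pairs of mice. Only 12 family sequences were met in these 2 mice alone, with 23 reads in replicate 1 and 16 in replicate 2. Without these 12 sequences, an alternative chosen after seeing the data, the group difference in family share was -1.54 percentage points, and no call changed. Receptors of other cells that the sort could admit were rare: the invariant NKT join of TRAV11 with TRAJ18 had 2 to 25 reads per mouse and the MAIT join of TRAV1 with TRAJ33 had 0 to 6, where 0 of 10000 reads allows a share of up to 0.03%. TRBV14, the β-chain segment of the transferred Pmel-1 cells that endogenous cells also use, took 3.99% to 6.43% of β-chain reads. The libraries carried no molecular identifiers, so intervals cover counting error only, and fewer cells of a clone and less receptor RNA per cell cannot be told apart.

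The first question was how much of the en-T cell repertoire the family made up with and without the antibody. The family held 1432, 1349 and 1311 reads in the CTXpre mice and 1169, 1049, 1363, 1286 and 1087 reads in the CTXpre/CD4post mice, each of 10000. Its share ran from 10.5% (Wilson 95% interval 9.91 to 11.1) in CTXpre/CD4post replicate 2 to 14.3% (13.6 to 15.02) in CTXpre replicate 1. The groups overlapped at a single mouse, CTXpre/CD4post replicate 3, which lay above 2 of the CTXpre mice. The mean was 13.6% ± 0.619 (SD, n = 3) in CTXpre and 11.9% ± 1.32 (n = 5) in CTXpre/CD4post mice. The difference of -1.73 percentage points did not pass the exact two-sided Mann-Whitney test (p = 0.143, 0.438 after Benjamini-Hochberg adjustment over 7 group measures), for which the smallest p that 56 assignments allow is 0.0357.

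TRAV14N-1 was the most used copy name. It had 464, 451 and 395 reads in CTXpre mice and 359, 294, 490, 393 and 237 reads in CTXpre/CD4post mice. It ranked first of the 8 names in 7 mice and second in CTXpre/CD4post replicate 5, where TRAV14-3 led. The groups overlapped, and its share of all reads ran from 2.37% (Wilson 95% interval 2.09 to 2.69) to 4.90% (4.49 to 5.34).

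TRAV14-3, the copy nearest the J segments, came next in the mean, with 179, 175 and 236 reads in CTXpre and 138, 122, 192, 158 and 259 reads in CTXpre/CD4post mice. The highest value belonged to CTXpre/CD4post replicate 5, where 48 of the 259 reads were 1 clonotype. TRAV14N-2 followed with 197, 175 and 143 reads against 152, 90, 154, 152 and 162 reads. It overlapped TRAV14-3, which was higher in 5 of 8 mice.

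TRAV14-2 had 136, 102 and 142 reads in CTXpre and 172, 82, 136, 140 and 188 reads in CTXpre/CD4post mice. TRAV14D-1 had 136, 146 and 122 against 77, 184, 133, 103 and 65 reads, and TRAV14-1 had 129, 134 and 108 against 134, 103, 100, 157 and 89 reads. These 3 names were not separated in order: the mean difference between TRAV14D-1 and TRAV14-1 was 1.5 reads with an SD of 45.9. Of each neighbouring pair in the order TRAV14-3, TRAV14N-2, TRAV14-2, TRAV14D-1 and TRAV14-1, the first was higher in 5 or 6 of 8 mice.

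TRAV14N-3 had 107, 100 and 112 reads in CTXpre and 80, 113, 95, 126 and 36 reads in CTXpre/CD4post mice, and TRAV14D-2 was lowest with 84, 66 and 53 against 57, 61, 63, 57 and 51 reads. TRAV14D-2 thus had 61.5 ± 10.4 reads per mouse (n = 8) where TRAV14N-2, whose V exon is the same, had 153 ± 30.6. The DV copy TRAV14D-3-DV8, which can also serve the δ-chain, had 73, 83 and 60 reads in CTXpre mice against 174, 27, 79, 53 and 190 reads in CTXpre/CD4post mice. In the latter group its reads ranged more widely than those of any of the 8 family names relative to their mean. The largest clonotype made up 74 of the 174 reads in replicate 1, and a different one made up 138 of the 190 reads in replicate 5.

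**Figure D1:**
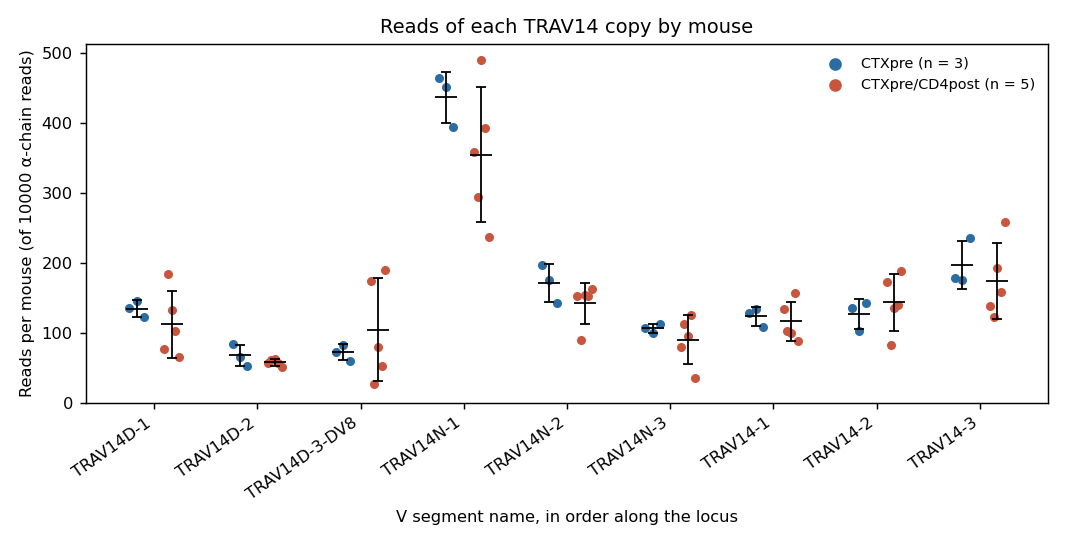
Reads of each TRAV14 copy name per mouse, of 10000 α-chain reads, with names in order along the locus. Points are mice, and bars give the mean and SD of 3 CTXpre and 5 CTXpre/CD4post mice. TRAV14N-1 lies between 237 and 490 reads and above the other names in 7 mice, and the groups overlap for every copy.

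No copy passed a count test between the groups. In the edgeR quasi-likelihood test over 103 α-chain V names, 0 of the 8 family names and 0 of all names were called (0.00% of those tested), and 6 names in all, none of them in the family, had an unadjusted p under 0.05. DESeq2 called 0 names, with 3 names under that unadjusted threshold and none in the family. Fitted log2 differences (CTXpre/CD4post over CTXpre) were negative for 7 of the 8 names, from -0.28 (SE 0.20) for TRAV14N-1, with the smallest adjusted p of the 8 (0.743, edgeR), to -0.06 for TRAV14-1. TRAV14-2 was the exception at 0.20 (SE 0.27). When names were pooled to families, edgeR called 0 of 26 families. The TRAV14 family had a negative log2 difference and was 1 of 3 families with an unadjusted p under 0.05 (adjusted p = 0.374, edgeR).

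The V names outside the family whose reads followed those of the family most closely over the 8 mice were TRAV15N-1 (Spearman rho 0.90, 5 to 22 reads per mouse), TRAV15D-1-DV6D-1 (rho 0.84, 16 to 29 reads), and TRAV12N-1 and TRAV12N-3, tied at rho 0.74. This is a description over 92 names, in libraries that share 1 fixed total, and the first 3 had few reads.

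The second question was which J segments the family was joined to. TRAJ22 led in every mouse except CTXpre/CD4post replicate 2. It took 156 of 1432, 151 of 1349 and 160 of 1311 family reads in CTXpre mice, or 10.9%, 11.2% and 12.2%. In CTXpre/CD4post mice it took 10.9%, 10.2%, 13.9%, 10.8% and 14.995%, from 107 of 1049 reads (Wilson 95% interval 8.51 to 12.2) in replicate 2 to 163 of 1087 reads (12.996 to 17.2) in replicate 5. The groups overlapped, with means of 11.4% ± 0.687 (n = 3) and 12.1% ± 2.14 (n = 5), and the exact two-sided Mann-Whitney p was 0.786 (0.917 adjusted).

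TRAJ22 was also the most used J segment among all other V segments, but at 5.60% ± 0.476 of their reads (SD, 8 mice, 4.77% to 6.36%), so that the family mean of 11.9% ± 1.70 was 2.12 times as high and lay above the other segments in 8 of 8 mice. The TRAJ22 germline join alone supplied 20.9% to 40.6% of the family's TRAJ22 reads. Without that 1 sequence the TRAJ22 share of the family was 8.28% ± 1.95 and still lay above the 5.60% of the other segments in each mouse. Without all clonotypes of 10 or more reads it was 7.88% ± 0.515, and with each clonotype counted once its mean was 6.93%. The other segments were not scored in these 2 ways.

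TRAJ30 was the next partner at 6.33% ± 2.29 of family reads, beside 4.97% ± 0.528 of the reads of other V segments. It took 4.75%, 5.26% and 5.57% in CTXpre mice and 4.11%, 11.2%, 6.60%, 5.29% and 7.82% in CTXpre/CD4post mice. CTXpre/CD4post replicate 2 stood highest, with 4 TRAJ30 clonotypes of 10 or more reads that summed to 65 of its 118 TRAJ30 reads. When clonotypes of 10 or more reads were left out, TRAJ30 lay between 4.49% and 6.48% in all 8 mice, and replicate 2 was at 5.61%.

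The other partners named were TRAJ26 (5.33% ± 1.05 of family reads), TRAJ23 (4.28% ± 0.435), TRAJ49 (3.68% ± 0.850), TRAJ12 (3.51% ± 0.488), TRAJ48 (3.30% ± 1.17), TRAJ45 (3.14% ± 0.570), TRAJ21 (3.10% ± 0.680), TRAJ31 (3.07% ± 0.701) and TRAJ40 (3.02% ± 0.651), each a mean ± SD of 8 mice. Most lay close to their share among other V segments. TRAJ31 was the exception in the lower direction, at 3.07% beside 4.50% ± 0.574, below it in 8 of 8 mice. TRAJ48 was above in 7 mice, at 3.30% beside 2.35%, and in CTXpre/CD4post replicate 5 it reached 6.07%, where 41 of its 66 reads were the TRAJ48 clonotype shown above. Beyond the named segments, TRAJ5 stood at 1.24% beside 0.558%, or 2.22 times, and TRAJ50 at 2.71% beside 1.45%. Both were above in 8 of 8 mice. TRAJ15 and TRAJ39, among others, lay below in every mouse, so a difference from other V segments was not particular to TRAJ22.

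**Figure D2:**
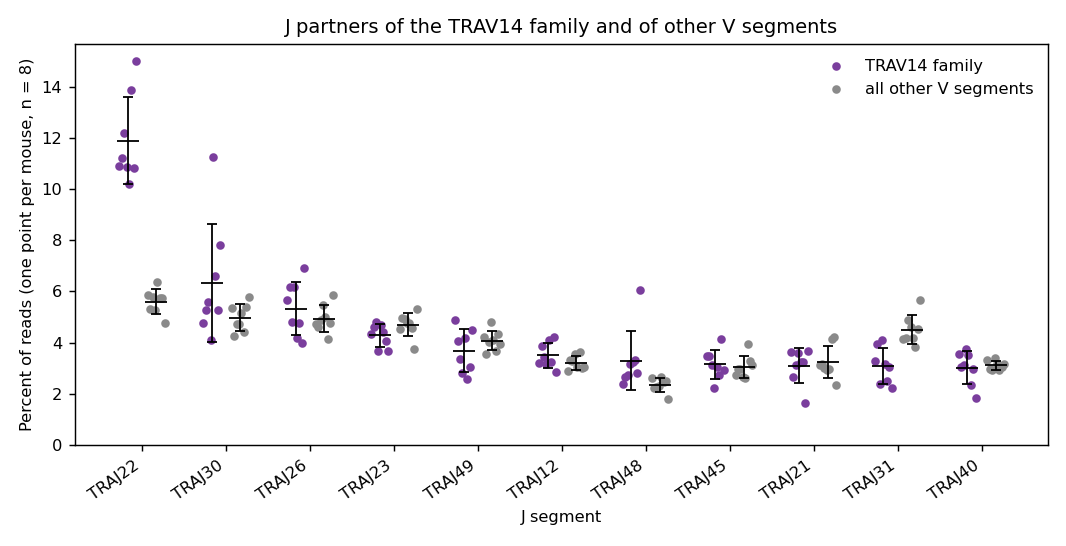
Percent of reads joined to each of the 11 leading J segments, for the TRAV14 family and for all other V segments of the same mice. Points are the 8 mice, and bars give the mean and SD. TRAJ22 stands at 10.2% to 14.995% of family reads and at 4.77% to 6.36% of the reads of other V segments.

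Partners differed between the copy names. TRAJ22 took 20.1% ± 2.28 of TRAV14N-1 reads (17.3% to 23.5% over 8 mice), 13.03% ± 2.62 of TRAV14N-2 reads and 12.9% ± 5.36 of TRAV14D-1 reads. It took 3.13% to 8.43% on average in the other 5 names, and 29.3% of TRAV14-3 reads in CTXpre/CD4post replicate 5, where the TRAJ22 join with 5 added bases had 48 reads. In the other 7 mice TRAJ22 took 3.65% to 8.70% of TRAV14-3 reads. The TRAV14N-1 share also rested largely on a single sequence. Of the 614 TRAV14N-1 reads joined to TRAJ22 over all mice, 396 were the TRAJ22 germline join, and the share without them was not computed. Counting each clonotype once, TRAJ22 made up 6.84% ± 1.42 of TRAV14N-1 clonotypes and 11.2% ± 2.30 of TRAV14N-2 clonotypes, so that the order of these copies by reads and by clonotypes was not the same.

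The position of the J partners along the locus also differed. Measured over clonotypes as the mean distance from the first annotated J segment, in a J region whose segment starts span 60.6 kb, the D and N copies used J segments at 33.0, 34.1 and 34.6 kb in CTXpre mice and at 33.9, 31.9, 35.2, 32.3 and 32.0 kb in CTXpre/CD4post mice. The 3 unmarked copies, which lie nearest the J segments, used J segments at 25.7, 25.8 and 26.6 kb against 26.0, 25.1, 27.8, 26.3 and 26.9 kb. Pooled in this way, the D and N names were joined to more distant J segments in 8 of 8 mice, by 7.09 ± 1.11 kb. TRAV14N-2 lay highest at 37.8 ± 1.35 kb and TRAV14-2 lowest at 23.05 ± 1.03 kb, and TRAV14D-2 was at 26.3 ± 1.19 kb although its V exon equals that of TRAV14N-2. The pooled order did not hold for every name: on average TRAV14D-2 lay below the unmarked TRAV14-1 (27.4 ± 1.27 kb) and TRAV14-3 (27.9 ± 1.81 kb).

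No V-J pair passed the test between the groups. Of the V-J pairs with enough reads edgeR called 0 (0.00% of those tested), among them 0 of 25 family pairs, while 14 pairs in all and 2 in the family had an unadjusted p under 0.05. DESeq2 called 0 pairs, with 12 pairs in all and 0 family pairs under that unadjusted threshold. The 2 family pairs, named after their values were seen, were TRAV14N-1 with TRAJ7 (log2 difference -1.02, SE 0.46) and TRAV14N-1 with TRAJ11 (-1.85, SE 0.85), both at an adjusted p of 0.818. TRAV14N-1 with TRAJ22 had a log2 difference of -0.28 (SE 0.26, adjusted p = 0.897, edgeR).

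When every pair with at least 1 read was tested, edgeR called 9 of 4105 pairs (0.219%), among them 2 of 340 family pairs (0.588%). The family pairs were TRAV14-1 with TRAJ11 (log2 difference 4.47, SE 1.06, edgeR adjusted p = 0.0167) and TRAV14-3 with TRAJ50 (-2.43, SE 0.62, edgeR adjusted p = 0.0423). Each held 1 large clonotype of 1 mouse. The TRAJ11 join with 1 added base had 47 reads in CTXpre/CD4post replicate 4, and the TRAJ50 join with 2 added bases had 52 reads in CTXpre replicate 3, and neither was met in any other mouse.

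Most family CDR3s were 42 or 39 bases long. A length of 42 bases (14 codons) made up 41.0% ± 2.04 of family reads, beside 29.0% ± 1.01 of other reads, and 39 bases made up 28.0% ± 3.72 beside 23.3% ± 0.890. Lengths of 45 bases were rarer in the family (10.6% ± 2.03 beside 16.9% ± 0.898), as were those of 48 bases (3.49% ± 0.475 beside 7.32% ± 0.745). The mean family CDR3 was 40.7, 40.6 and 40.7 bases long in CTXpre mice and 40.4, 40.6, 40.8, 40.5 and 40.6 bases in CTXpre/CD4post mice. The groups overlapped (exact two-sided Mann-Whitney p = 0.393, 0.550 adjusted).

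Within each mouse the family mean was shorter than that of the other segments, by 0.295 ± 0.134 bases over 8 mice. The direction was the same in 8 of 8 mice, and the exact two-sided sign-flip test gave p = 0.00781, the smallest it can give over 8 mice, or 0.0156 adjusted over 4 measures. The difference is a fraction of 1 codon. With the DV copy counted in the family it was -0.20 bases and no longer passed (exact p = 0.125).

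The third question was how often the family's joins kept the germline sequence and were shared between animals. By the V end and J start positions in the deposited files, 32.2%, 34.5% and 30.4% of family reads had no base between V and J in CTXpre mice and 36.1%, 31.6%, 38.4%, 35.7% and 32.6% had none in CTXpre/CD4post mice. The groups overlapped (exact two-sided Mann-Whitney p = 0.250, 0.438 adjusted). Over the 8 mice the family mean was 33.9% beside 32.8% for the other segments, a difference that did not pass (exact sign-flip p = 0.336).

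In 27.1% of family reads the deposited V end lay past the 13 germline V bases, so joins were also scored by their longest exact match to the germline V and J sequences, a score chosen after seeing the data. That score gave 17.0% ± 1.81 of family reads without added bases beside 15.1% ± 1.30 for the other segments, a mean difference of 1.91 percentage points that passed the exact sign-flip test (p = 0.0234). This difference turned on 1 sequence. Without the TRAJ22 germline join it was -1.48 percentage points by the germline match (exact p = 0.102) and -1.53 by the deposited positions (exact p = 0.266). With each clonotype counted once, the family had fewer such joins than the other segments by both scores, by a difference of -2.27 percentage points by the germline match and -3.64 by the deposited positions (exact p = 0.00781 for each).

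Germline joins were not spread evenly over the copy names, although all copies give the CDR3 the same first 13 bases. By the germline match, and counting each clonotype once, names TRAV14N-1 and TRAV14D-1 together had 15.8%, 16.1% and 12.4% germline joins in CTXpre mice and 16.4%, 20%, 15.1%, 15.6% and 19.5% in CTXpre/CD4post mice. The other 6 names together had 7.57%, 5.78% and 7.46% against 7.26%, 5.17%, 7.08%, 7.69% and 8.79%. The 2 ranges did not overlap. TRAV14N-1 stood at 16.1% ± 3.88 and TRAV14D-1 at 17.7% ± 3.67, while the means of the other 6 names lay between 5.34% and 8.15%. By reads the pair of names had 31.1% ± 4.07 germline joins, or 23.6% ± 4.28 without the TRAJ22 germline join, and the other 6 names had 7.63% ± 1.26. Within a mouse each family CDR3 sequence bore a single family name. Chains of different copies with the same germline join would therefore be counted under that name alone. Whether the copy names given to such sequences play a part in the uneven spread was not tested.

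**Figure D3:**
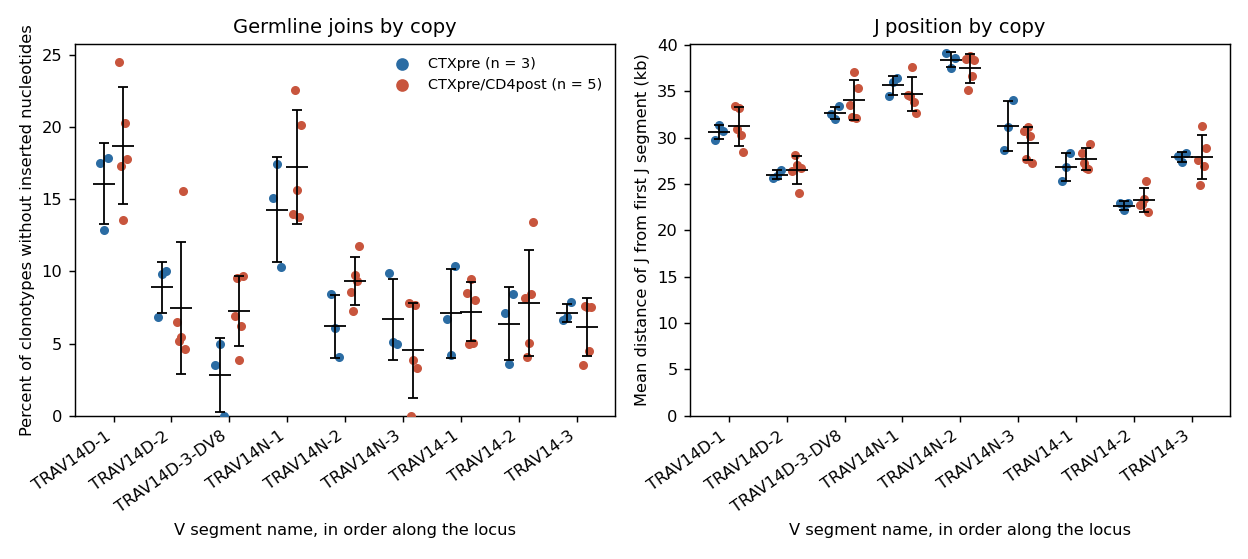
Left, percent of clonotypes of each copy name without bases between the germline V and J matches; right, mean distance in kb of their J segments from the first J segment of the locus. Points are mice, and bars give the mean and SD of 3 CTXpre and 5 CTXpre/CD4post mice; TRAV14D-1 and TRAV14N-1 average 17.7% and 16.1% germline joins, and the unmarked copies are joined to J segments at 23.05 to 27.9 kb on average.

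Of 4984 family CDR3 sequences, 4218 (84.6%) were met in 1 mouse under a family name, and 3.44% of these had no added bases by the germline match. The share without added bases was 14.7% of the 469 sequences met in 2 mice, 25.8% of the 155 met in 3 and 26.0% of the 77 met in 4. It was 45.5% of the 33 met in 5 mice, 28.6% of the 14 met in 6, 45.5% of the 11 met in 7 and 57.1% of the 7 met in all 8, so it did not rise at every step, and the last groups were small. Among the sequences of other V segments the share was higher at each number of mice, from 6.84% of those met in 1 mouse to 70.6% of the 17 met in all 8.

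Sequences met in at least 6 mice under a family name were called public. There were 32, or 20.5% of the 156 such sequences when V names were pooled to families. They joined 15 J segments, led by TRAJ22 with 6 sequences and TRAJ23 with 4, and 19 of the 32 were 42 bases long. Added bases were absent from 13 and never exceeded 3, and 26 of the 32 kept all 13 germline V bases.

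Public sequences made up 8.10%, 11.3% and 9.84% of family reads in CTXpre mice and 8.98%, 10.2%, 12.4%, 9.10% and 8.83% in CTXpre/CD4post mice. The groups overlapped, with means of 9.76% and 9.90% (exact two-sided Mann-Whitney p = 1.00). Within each mouse the public share was higher in the family than in the other segments, where it was 2.66% to 4.44%, by 6.40 ± 1.45 percentage points. The direction was the same in 8 of 8 mice, and the exact sign-flip test gave p = 0.00781 (0.0156 adjusted), the smallest it can give. Public sequences were chosen for recurring in at least 6 of these same mice, so agreement between mice was largely built in. This p therefore does not rest on 8 independent mice. The size of the difference rested largely on the TRAJ22 germline join. It was 2.72 percentage points without that join and 1.82 with each clonotype counted once, each with the same exact p and the same limit.

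The TRAJ22 germline join was the largest of the public sequences and carried the name TRAV14N-1 in all 8 mice. It had 47, 59 and 65 reads in CTXpre mice and 42, 39, 55, 55 and 34 reads in CTXpre/CD4post mice, which overlapped. Its share of all reads ran from 0.34% (Wilson 95% interval 0.243 to 0.475) to 0.65% (0.510 to 0.828). It was the largest family clonotype in all 3 CTXpre mice and in CTXpre/CD4post replicates 1, 2 and 3. In the family 10 different nucleotide sequences encoded the same CDR3, with 465 reads in all, of which this one had 396. Without molecular identifiers, errors in copying or reading it cannot be told apart from separate joins among the rest.

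The other named sequences met in all mice were far smaller. The TRAJ13 germline join had 7, 7 and 5 reads in CTXpre and 15, 1, 8, 2 and 6 reads in CTXpre/CD4post mice. The TRAJ30 germline join had 6, 6 and 8 reads against 3, 5, 6, 3 and 2 reads. The short TRAJ22 germline join had 6, 6 and 1 against 0, 8, 14, 3 and 6 reads under a family name, and in CTXpre/CD4post replicate 1 it was found only under another V name. None of these 3 was limited to 1 group. Further family sequences met in all 8 mice were a TRAJ22 join with 2 added bases (37 reads over all mice) and a TRAJ12 join with 2 (23). That TRAJ22 join differs from the TRAJ22 germline join at a single base. An error in copying or reading the larger sequence cannot be told apart from a separate join here. A TRAJ23 join with 3 added bases (15 reads) and a TRAJ48 join with none (18) were also met in all 8. A TRAJ12 germline join (29 reads) was met in 7 mice under a family name and in 8 under any V name.

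The fourth question was how large single clonotypes of the family were. Clonotypes of 10 or more reads, called expanded here, numbered 2, 2 and 2 in CTXpre mice and 5, 5, 8, 8 and 12 in CTXpre/CD4post mice. The groups did not overlap. The same was true of all α-chain clonotypes, of which 12, 12 and 15 against 43, 21, 35, 61 and 102 had 10 or more reads. The family thus made up 16.7%, 16.7% and 13.3% of expanded clonotypes in CTXpre mice and 11.6%, 23.8%, 22.9%, 13.1% and 11.8% in CTXpre/CD4post mice. Beside this, it held 6311 of 53249 clonotypes of all sizes and 12.6% of reads. In each CTXpre mouse 1 of the 2 was the TRAJ22 germline join. A clonotype can hold reads of cells that made the same join separately. Its size therefore does not show the growth of a single clone, least of all for germline joins.

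Expanded clonotypes held 6.01%, 5.34% and 8.92% of family reads in CTXpre mice and 8.47%, 9.91%, 10.5%, 18.4% and 25.9% in CTXpre/CD4post mice. CTXpre/CD4post replicate 1 lay below CTXpre replicate 3, so the groups overlapped, and the means of 6.76% ± 1.91 (n = 3) and 14.6% ± 7.37 (n = 5) did not pass the exact two-sided Mann-Whitney test (p = 0.0714, 0.438 adjusted). Without the TRAJ22 germline join the shares were 2.82%, 1.01% and 4.17% against 5.06%, 6.44%, 6.73%, 14.7% and 23.5%. These no longer overlapped, and the exact p of 0.0357 was the smallest the design allows. This alternative was chosen after seeing the data. The other V segments of the same mice did not overlap either, with 1.82%, 2.35% and 2.05% of their reads in expanded clonotypes in CTXpre mice and 9.95%, 2.96%, 8.23%, 11.2% and 25.9% in CTXpre/CD4post mice, so the separation was not particular to the family. Reads per family clonotype were 1.51, 1.44 and 1.52 against 1.69, 1.40, 1.59, 1.78 and 2.02, which overlapped (exact two-sided Mann-Whitney p = 0.250, 0.438 adjusted).

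Compared with other V segments of the same mouse, the family had more of its reads in expanded clonotypes in 6 of 8 mice, by 3.61 ± 3.29 percentage points (exact sign-flip p = 0.0312, 0.0417 adjusted). This difference turned on 1 sequence: without the TRAJ22 germline join it was -0.01 percentage points (exact p = 1.00). It was also no longer under 0.05 (exact p = 0.0625) when any 1 of 6 mice was left out, namely CTXpre replicates 1, 2 and 3 and CTXpre/CD4post replicates 2, 3 and 4. None of the 4 differences between the family and other segments (length, joins without added bases, public share, expanded share) passed a test between the groups, with exact two-sided p of 0.786, 0.143, 0.393 and 0.786.

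**Figure D4:**
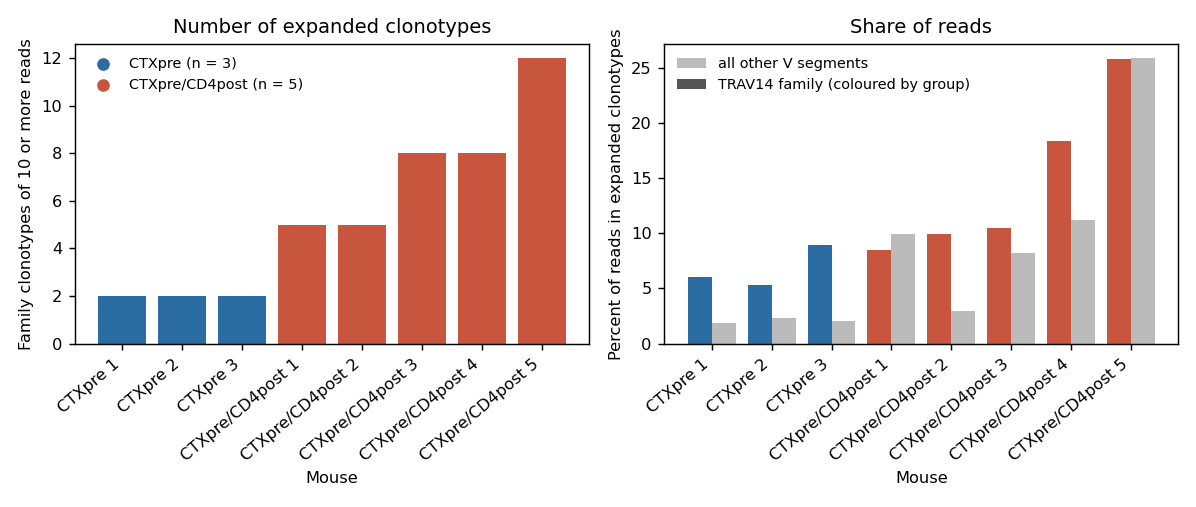
Left, number of TRAV14 family clonotypes with 10 or more reads in each mouse; right, percent of reads in such clonotypes for the family (coloured) and for all other V segments (grey). Each CTXpre mouse has 2 such family clonotypes and the CTXpre/CD4post mice have 5 to 12, while the percent of reads overlaps between the groups for the family (5.34% to 8.92% against 8.47% to 25.9%) and not for the other segments (1.82% to 2.35% against 2.96% to 25.9%).

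Beside the TRAJ22 germline join, 35 different family sequences were expanded in at least 1 mouse, and they differed from mouse to mouse. By J segment TRAJ30 came first with 9 of these 36 occurrences and TRAJ22 next with 5. Of all 44 occurrences 21 were named TRAV14N-1, and none was named TRAV14D-2. The 21 include the TRAJ22 germline join, which was expanded under that name in all 8 mice. Of the 10046 family reads TRAV14N-1 held 3083 and TRAV14D-2 held 492, so a name with more reads had more occurrences to give. Only 10 of the expanded sequences were met in no other mouse under any V name.

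In the CTXpre mice the second expanded clonotype was the TRAJ11 join with 7 added bases (TRAV14N-1, 39 reads in replicate 1), a TRAJ30 join of 13 reads in replicate 2, and the TRAJ50 join with 2 added bases (TRAV14-3, 52 reads in replicate 3). The first and last were met in no other mouse. The TRAJ30 join of replicate 2, named after its values were seen, was public, with 1 to 3 reads in 6 other mice.

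CTXpre/CD4post replicates 4 and 5 held the largest of the antibody-treated mice. The TRAJ17 germline join had 61 reads in replicate 4, above the 55 of the TRAJ22 germline join, and was met elsewhere with 1 read in CTXpre replicate 3. The TRAJ11 join with 1 added base had 47 reads in replicate 4 only. In replicate 5 the TRAJ22 join with 5 added bases had 48 reads and 2 reads in replicate 3, and the TRAJ48 join with 1 added base had 41 reads and 1 read in CTXpre replicate 3.

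The TRAJ30 join with 2 added bases was expanded in 2 mice, with 25 reads in CTXpre/CD4post replicate 2 and 20 in replicate 5, and had 1 read each in replicates 1 and 3. It had 0 reads in replicate 4 and in all CTXpre mice, where 0 of 10000 reads allows a share of up to 0.03%. Together with 4 other nucleotide sequences encoding the same CDR3, it came to 0, 0 and 5 reads in CTXpre mice and 1, 38, 7, 3 and 23 reads in CTXpre/CD4post mice. The groups overlapped.

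The remaining private expanded clonotypes lay in 2 mice. In CTXpre/CD4post replicate 4 they were a TRAJ11 join of TRAV14N-3 (20 reads) and a TRAJ30 join of TRAV14N-2 (19 reads). In replicate 5 they were joins to TRAJ13 (19 reads), TRAJ49 (17), TRAJ21 (13), TRAJ24 (13) and TRAJ50 (11).

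**Figure D5:**
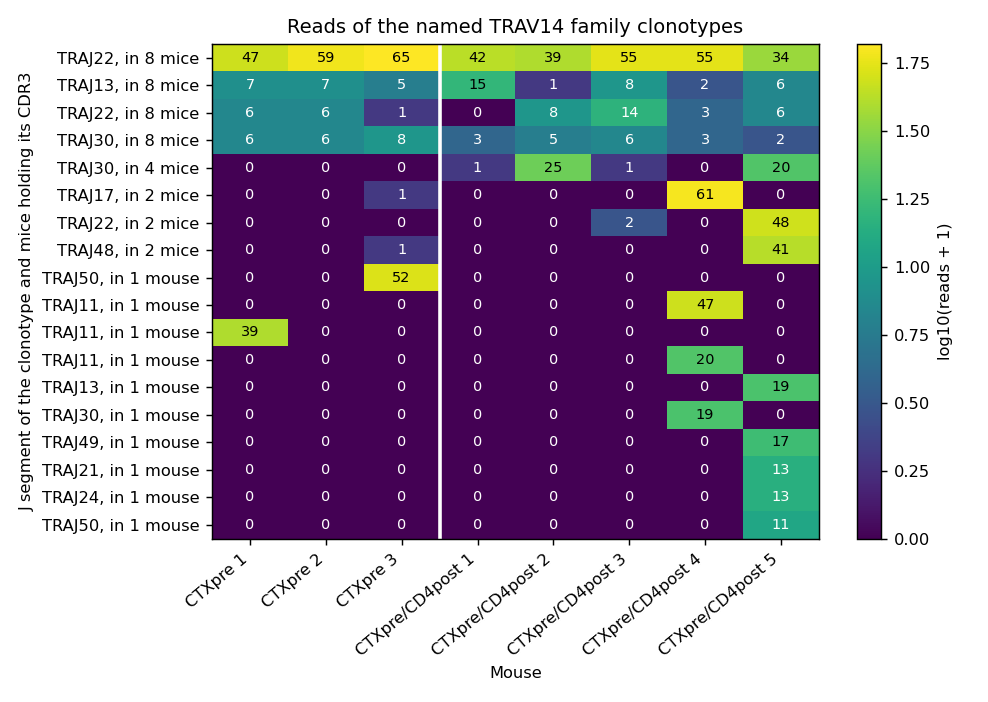
Reads of the 18 named TRAV14 family clonotypes in each of the 8 mice, with colour on a log10(reads + 1) scale; each row is 1 CDR3 nucleotide sequence, given by its J segment and the number of mice that hold it. The TRAJ22 germline join in the first row has 34 to 65 reads in every mouse, while the rows met in 1 mouse are filled in CTXpre replicates 1 and 3 and CTXpre/CD4post replicates 4 and 5.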

How the data were processed

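Receptor chains were read from 1 library per mouse (3 CTXpre, 5 CTXpre/CD4post). Per the methods of the study, RNA was amplified by nested PCR, trimmed with Scythe and Sickle and aligned in MiXCR, and chains were extracted with VDJtools; the version and segment library of MiXCR are not given in the sources used here, and the authors list mm10. The deposited counts are reads per clonotype after down-sampling by the authors to 10000 reads per file, so rare clonotypes are missed and totals carry no information on cell number. The deposited V end and J start positions, another unit used here, give the last V and first J base in the CDR3. PCR duplicates cannot be removed.

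The members and lists were chosen with earlier results of these data known. Named items were all 8 V names, 11 J segments, all called family pairs, the 10 largest clonotypes by mean, the largest of each mouse, and up to 10 expanded clonotypes of a single mouse. Groups were compared by exact Mann-Whitney tests and within mice by exact sign-flip tests (Python 3.11.15, SciPy 1.17.1). Counts per V name and V-J pair (kept from 10 reads in 3 mice) were tested with edgeR 4.0.16 and DESeq2 1.42.0 in R 4.3.3 at an adjusted p under 0.05, and the scripts were tested on simulated data. Each SE given with an edgeR log2 difference is its absolute value over the square root of the F statistic of the test. It restates that statistic and is no separate estimate of spread. The pairing check used log2 of counts plus 1. Germline sequence came from GRCm38 chromosome 14 with GENCODE positions; all 8 family names and 105 of 108 other V names matched. Of the β-chain files only TRBV14 reads were tabulated.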

Additional observations from a re-analysis of the deposited data

Results flagged for a closer look

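Within the 5 CTXpre/CD4post mice, 16 of 57 quantities had a mouse far from its group, meaning that the gap to its nearest neighbour exceeded 0.71 of the whole range. Chance alone gives this in about 1 of 20 groups, and 11 of the 16 were single clonotypes that were large in 1 mouse, which were named because of their size.

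TRAV14N-2 had 90 reads in replicate 2, where the other 4 mice had at least 152. TRAJ22 took 29.3% of TRAV14-3 reads in replicate 5 and at most 8.70% in the others. TRAJ48 took 6.07% of family reads in replicate 5, with a next value of 3.30%, and TRAJ21 took 1.63% in replicate 4, with a next value of 3.23%. The public share of the family exceeded that of other segments by 9.27 percentage points in replicate 3, with a next value of 6.65.

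Clonotypes that stood apart in replicate 4 were the TRAJ17 germline join (61 reads), the TRAJ11 join with 1 added base (47), a second TRAJ11 join (20) and a TRAJ30 join (19). Those in replicate 5 were the TRAJ22 join with 5 added bases (48 reads), the TRAJ48 join with 1 added base (41), and joins to TRAJ13 (19), TRAJ49 (17), TRAJ21 (13), TRAJ24 (13) and TRAJ50 (11).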

How the results depend on the processing

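Depth limits these results: at 10000 reads per mouse most clonotypes had 1 read, 3 against 5 mice allow no exact p under 0.0357, and copy names are unstable between mice. Under the alternatives 268 values kept direction and call. The cause of the changes below was not tested.

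Group differences (CTXpre/CD4post minus CTXpre) changed as follows. The public share difference was -1.18 to 0.271 percentage points with 1 mouse left out (reversed without CTXpre replicate 1 or CTXpre/CD4post replicate 2, 3 or 4), -0.130 with the DV copy included, 1.08 with each clonotype counted once (exact p = 0.0357), -2.04 without clonotypes of 1 read and -0.704 for sequences of all mice. CDR3 length differed by 0.0729 bases with the DV copy and 0.0732 with clonotypes counted once. The expanded share difference reached an exact p of 0.0357 with the DV copy (10.6 percentage points), without each mouse's largest family clonotype (8.32), with clonotypes counted once (0.913), from 5 reads (10.5) and, chosen after seeing the data, without the TRAJ22 germline join (8.61). Without clonotypes of 1 read, TRAJ22 share differed by -0.851 percentage points and reads per clonotype by 0.631 (exact p = 0.0357).

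Differences between the family and other segments changed as follows. The expanded share difference was 3.11 to 4.33 with 1 mouse left out, -0.195 without each mouse's largest clonotype, -0.0142 without the TRAJ22 germline join and -7.39 against the DV copy. The length difference was -0.200 bases with the DV copy included and -0.466 against it, past the threshold in neither. The share without inserted bases differed by -0.504 percentage points with the DV copy, -3.64 with clonotypes counted once, -1.68 without each mouse's largest clonotype, -1.53 without the TRAJ22 germline join, 1.91 by germline match (exact p = 0.0234; -1.48 without the TRAJ22 germline join and -2.27 with clonotypes counted once) and 18.6 against the DV copy (exact p = 0.00781). The public share difference kept its call at 2.72 without the TRAJ22 germline join, 2.73 without each mouse's largest clonotype and 1.82 with clonotypes counted once. Recurrence in these same mice defined the public sequences, so agreement between mice was largely built into that call. The germline match and the removal of the TRAJ22 join were chosen after seeing the data.

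Testing pairs from 1 read in total gave 9 called V-J pairs in place of 0. With 1 mouse left out the log2 difference of TRAV14-1 ran from -0.214 to 0.0162 and that of TRAV14-3 from -0.358 to 0.0284, turning positive without CTXpre/CD4post replicate 5 and CTXpre replicate 3 respectively. Replicate numbers did not pair the mice (correlations of same-numbered deviations -0.10, 0.04 and -0.06). With numbers 1 to 3 as a replicate block, TRAV14-2 had a log2 difference of -0.00555, the family share differed by -1.70 percentage points (exact p = 0.5), the other 6 group measures kept their direction, and edgeR called 0 V names and 0 pairs.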
